A study of Homo sapiens with 13 samples.

Results

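Ribosome footprints (RFs) are the stretches of mRNA that a ribosome shields from nuclease, and the level of RFs on a coding sequence measures how many ribosomes are on it. RFs were sequenced from MDA-MB-231 cells, a human breast cancer cell line, after 2 h with 200 nM INK128 or with the solvent DMSO. INK128 is an inhibitor of the active site of the kinase mTOR. Both treatments used fresh medium and cells at passage 3, with 1 RF library and 1 total RNA library for each treatment, and no genetic change separated the groups. Genes were taken from the INK128 table, with 1 entry for each symbol, where the annotation called them protein coding and where the mean RF level over both libraries was 1 FPKM or more. FPKM counts fragments relative to the length of the transcript and to all mapped fragments of the library. This rule kept 10041 of the 11735 protein coding genes and of the 13160 entries in all. ANKS6, at 0.977 FPKM with DMSO and 1.03 with INK128, was just inside the minimum, and CEP68, at 0.953 and 1.05, just outside. With 1 library for each treatment the differences have no replicate check, and no test could be made. The files give no read counts for this experiment, so the depth behind each value is unknown.

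mTOR complex 1 is a kinase that couples growth factor and amino acid supply to protein synthesis. It acts on translation through the 4E-BPs, which when unphosphorylated bind the cap-binding protein eIF4E, and through the S6 kinases and LARP1. mRNAs that begin with a cap-adjacent C and a run of pyrimidines, called 5′ TOP mRNAs, encode ribosomal proteins and translation factors and are known for their sensitivity to mTOR. When mTOR and AKT are inhibited, FOXO transcription factors enter the nucleus and induce genes such as those for insulin receptor substrates.

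The annotated 5′ ends of some of the mRNAs described here are shown because a pyrimidine run at the start was more frequent among the mRNAs with lower RFs, as given further on. Each line gives the first 25 bases of the RNA as DNA letters from the RefSeq start on GRCh38.p14, with a run of C and T that begins with C at the start and has at least 5 bases in capitals. The first group had lower RFs with INK128 and has such a run.
TPT1, chr13:45341159-45341183, minus strand: CTTTTCCgcccgctcccccctcccc
SLC25A6, chrX:1392089-1392113, minus strand: CCTTTCggtccaggcggcggcaggg
GLTSCR2, chr19:47745546-47745570, plus strand: CTTCCTTTgacaagatggcggcagg
EEF1A1, chr6:73521008-73521032, minus strand: CTTTTTCgcaacgggtttgccgcca
EEF2, chr19:3985439-3985463, minus strand: CTCTTCCgccgtcgtcgccgccatc
GNB2L1, chr5:181243882-181243906, minus strand: CTCTCTTTCactgcaaggcggcggc
EIF4B, chr12:53006456-53006480, plus strand: CTTTTgcgttctctttccctctccc
EIF3F, chr11:7987337-7987361, plus strand: CTTCTTTCTCgacaagatggccaca
TOMM7, chr7:22822825-22822849, minus strand: CCTTTCCCTTTCggattcccgacgc

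The next group also had lower RFs but has no such run at the annotated start.
EEF1G, chr11:62573867-62573891, minus strand: actttgcggcagcgccgagaacccc
YBX1, chr1:42682418-42682442, plus strand: attctcgctagttcgatcggtagcg
FTL, chr19:48965309-48965333, plus strand: gcagttcggcggtcccgcgggtctg
DDIT4, chr10:72273924-72273948, plus strand: gcagcaggccaagggggaggtgcga

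The last group had higher RFs.
CITED2, chr6:139374624-139374648, minus strand: acagctcattgttggcagctgccgg
KLF6, chr10:3785185-3785209, minus strand: gcagtcagtccggtgtttgcaaata
DUSP10, chr1:221742065-221742089, minus strand: aactatgttgctgctggagatcaat

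RF levels of most genes were close to equal in the DMSO and INK128 libraries. The log2 RF change (INK128/DMSO) had a median of 0.02 over the 10041 genes, and the middle 90% of genes lay between −0.39 and 0.37. A gene is called lower or higher here when its RF level differed by at least 1.5 times, which is 0.58 on the log2 scale. By this rule 220 genes (2.19% of those compared) had lower RFs and 170 (1.69%) had higher RFs. At 2 times, 104 (1.04%) were lower and 35 (0.349%) higher. Cytosolic ribosomal proteins made up 79 of the 220. Their median log2 RF change was −1.35 over 85 members, and 0.63 between the DMSO cultures described next, where only part of them have a value. Their summed RF level went from 24.6% of the coding total with DMSO to 11.8% with INK128. Outside this class, 141 of 9956 genes (1.42%) were lower and 170 (1.71%) were higher. The lower genes were most frequent among the most footprinted mRNAs. At 100 FPKM or more 13.4% of genes were lower and 1.47% higher, and without ribosomal proteins 3.59% and 1.65%. From 20 to 100 FPKM 1.13% were lower and 1.26% higher (1.05% and 1.27% without ribosomal proteins), and from 5 to 20 FPKM 1.18% and 1.58% (1.15% and 1.58%). From 1 to 5 FPKM the shares were 1.54% and 2.18%. The plot of RF levels shows this pattern.

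**Figure D1:**
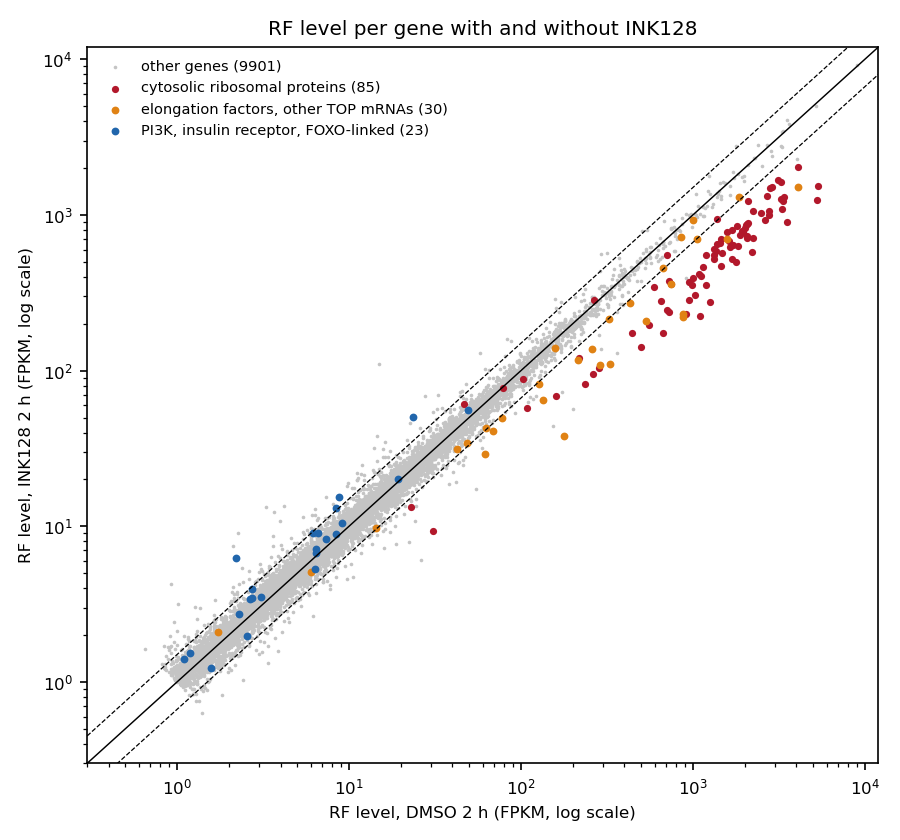
RF level (FPKM, log scale) of each gene with DMSO on the x axis and with INK128 on the y axis, 1 library each; the solid line marks equal levels and the dashed lines a 1.5-fold difference. Ribosomal proteins, elongation factors and other TOP mRNAs lie mostly under the lower dashed line at the high end, while 4 of the 23 PI3K, insulin receptor and FOXO-linked genes lie above the upper one; 2 genes under 0.3 FPKM in either library are not drawn.

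No second culture was profiled with INK128, so the size of differences between cultures was read from the other experiment of the series. There, RFs from cells given DMSO for 2 h were sequenced at passages 3 and 4, in a separate table of RPKM values, which scale reads by length and library as FPKM does. Between these cultures of the same treatment 6.16% of 8757 genes were lower and 15.9% higher by 1.5 times, and between the Silvestrol cultures 4.39% and 12.3%. These shares exceed those between INK128 and DMSO. The passage 4 library held 6446356 counted reads against 26176257 at passage 3, and the part of depth in this difference was not tested. A 1.5-fold difference of 1 gene in 1 pair of libraries was thus within what cultures of 1 treatment can show. Most classes below are accordingly given with the median log2 change between those DMSO cultures, over the members that have a value there. Some classes are covered only in part. By their Silvestrol values at passage 3, 53 of 85 ribosomal proteins, 23 of 52 histones and 18 of 27 tubulins were matched. The class lists were written with earlier results of these data known, so shares of called members are descriptions only.

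Markers of the cell line were examined first. RF levels with DMSO were 1852 FPKM for VIM, 263 for CD44, 156 for AXL, 240 for CAV1 and 789 for KRT18, all of which MDA-MB-231 cells are known to express. ERBB2 was low, at 6.41 FPKM, the epithelial cadherin gene CDH1 was at 0.17 and the endothelial marker PECAM1 at 0.11. EPCAM, another epithelial marker, was at 11.01 FPKM with DMSO and 13.3 with INK128. SPARC, ESR1, PGR, PTPRC, CD3E and ALB are not listed in the table.

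Elongation factors, which bring aminoacyl-tRNA to the ribosome and move it along the mRNA, had the lowest median RF change of any class outside ribosomal proteins. Of 9 members, 5 were lower (55.6%, beside 2.19% of all genes) and none was higher, with a median log2 RF change of −1.05, beside 0.02 over all genes. EEF1A1, the carrier of aminoacyl-tRNA, had an RF level of 4110 FPKM with DMSO and 1518 with INK128. EEF1G, a subunit of its exchange factor, was at 881 and 230 FPKM, and EEF1B2, another subunit, at 741 and 359. EEF2, the translocase, was at 537 and 207 FPKM. These levels were thus between 2.07 and 3.83 times lower with INK128. EEF1E1 (158 and 140 FPKM) and EEFSEC, the factor for selenocysteine (6.005 and 5.08), were within 1.5 times, as was EEF1A2, the form of muscle and neurons (14.4 and 9.69). EEF2K, the kinase that inhibits EEF2, was at 1.72 and 2.08 FPKM. Between the DMSO cultures the median change of this class was −0.60, for 6 members with a value.

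Among 26 further mRNAs known as 5′ TOP mRNAs from earlier work, which include the main elongation factors, 19 were lower (73.1%, beside 2.19% of all genes) and none higher, with a median of −0.82. All 26 were below the median of all genes, and they ranged from −2.24 to −0.11. PABPC1, the poly(A)-binding protein, was at 178 FPKM with DMSO and 37.9 with INK128, 4.71 times lower. TPT1, a growth-related protein also called TCTP, was at 880 and 221 FPKM, 3.98 times lower. GNB2L1, the ribosome-bound scaffold RACK1, was at 1585 and 701 FPKM. The smallest differences were those of the histone chaperone NPM1 (850 and 725 FPKM) and the HSP90 gene HSP90AB1 (1000 and 928), and the intermediate filament gene VIM (1852 and 1299) was within 1.5 times. The median change of this class between the DMSO cultures was 0.04, over 23 members.

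eIF3, the largest initiation factor, showed differences that varied among its subunits. Its 13 members had a median of −0.37, with 4 lower (30.8%, beside 2.19% of all genes) and none higher, and 12 lay below the median of all genes. EIF3L (135 and 64.9 FPKM), EIF3F (261 and 138), EIF3H (216 and 117) and EIF3E (327 and 215) were lower. EIF3A, the largest subunit, was at 73.9 and 57.1 FPKM, and EIF3I (212 and 197) and EIF3B (101 and 98.6) were close to equal. EIF3J, a loosely bound subunit, was at 139 and 188 FPKM. The DMSO cultures differed by a median of −0.23 for the same 13 genes.

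Of 29 other initiation factors, 3 were lower (10.3%, beside 2.19% of all genes) and none higher, with a median of −0.07 and of −0.04 between the DMSO cultures. EIF4B, a cofactor of the helicase eIF4A, was at 61.6 FPKM with DMSO and 29.0 with INK128. EIF2S3, the gamma subunit of eIF2, was at 77.7 and 49.9, and EIF5 at 36.5 and 23.8. EIF4A1 (674 and 615 FPKM), EIF5A (472 and 496) and EIF6 (391 and 399.4), the members with the most RFs, were close to equal, and so were EIF4G3 (8.07 and 8.94) and EIF2D (12.7 and 13.98).

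Apart from ribosomal proteins, the 10 lowest ratios among genes with a mean RF level of 10 FPKM or more were those of PABPC1, PABPC3, TPT1, EEF1G, RPSAP58, SLC25A6, GLTSCR2, YBX1, DDIT4 and FTL. SLC25A6, an ADP/ATP carrier of the inner mitochondrial membrane, was at 153 FPKM with DMSO and 43.9 with INK128. GLTSCR2, a nucleolar protein, was at 54.7 and 17.5 FPKM. YBX1, a cold shock domain protein that binds mRNA, was at 332 and 110 FPKM, but the DMSO cultures differed by 2.73 on the log2 scale for this gene. FTL, the light chain of the iron store ferritin, was at 363 and 131 FPKM, with −1.17 between the DMSO cultures. PABPC3 and RPSAP58 are near-identical copies of PABPC1 and of the ribosomal protein gene RPSA, and their values are uncertain for that reason. The plot of the lowest and highest ratios shows both levels of each gene.

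**Figure D2:**
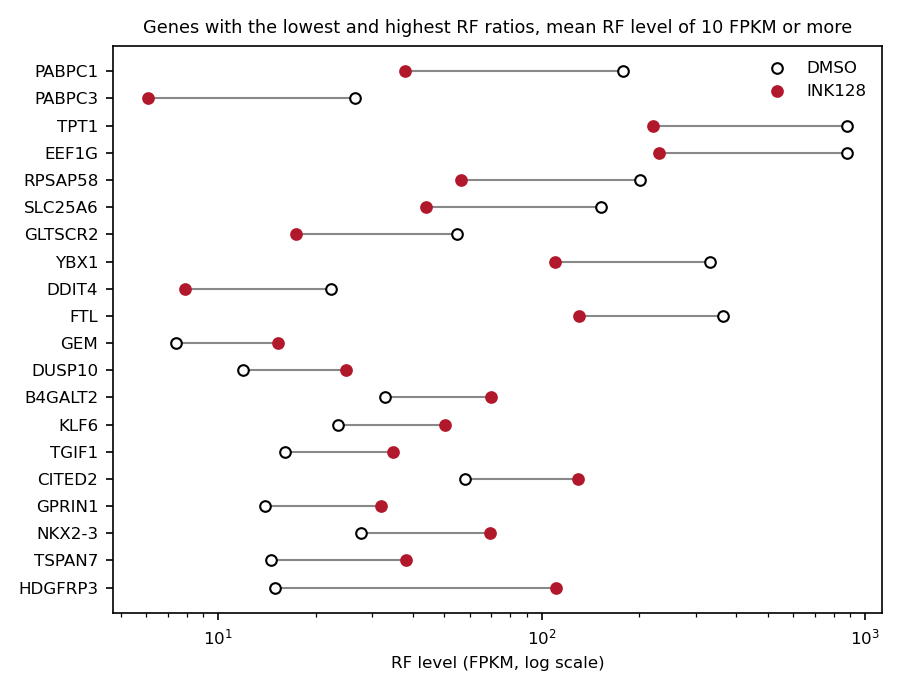
RF level (FPKM, log scale) with DMSO (open circles) and INK128 (filled circles), 1 library each, of the 10 genes with the lowest and the 10 with the highest ratios outside ribosomal proteins at a mean RF level of 10 FPKM or more. Values run from PABPC1, 178 to 37.9 FPKM, at the top to HDGFRP3, 15.0 to 111 FPKM, at the bottom.

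Ferritin mRNAs stood out within the 29 genes for iron and redox homeostasis, whose median was 0.05, and 0.11 between the DMSO cultures. FTH1, the ferritin heavy chain, was at 173 FPKM with DMSO and 73.4 with INK128. With FTL it was 1 of 2 lower members (6.90%, beside 2.19% of all genes). HMOX1, the heme oxygenase, was the 1 higher member (10.7 and 17.5 FPKM), 3.45% beside 1.69% of all genes. TXN (798 and 800), PRDX1 (531 and 532), GSTP1 (350 and 295) and GCLM (21.1 and 24.9), which act against oxidants, were within 1.5 times.

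Mitochondrial classes were shifted by less. The 29 genes of mitochondrial protein import had a median of −0.18, with 27 below the median of all genes. TOMM7, a regulator of the outer membrane translocase, was at 110 and 62.8 FPKM, and TIMM8A, a chaperone of the intermembrane space, at 17.3 and 11.4. TOMM6 (335 and 320), HSPA9 (110 in both libraries), TIMM10 (91.2 and 85.3), TOMM34 (38.5 and 39.3) and TOMM70A (24.6 and 25.8) were close to equal. The 79 mitochondrial ribosomal proteins had a median of −0.12 and a range of −0.49 to 0.21, with no member past 1.5 times, in contrast to 79 of 85 among the cytosolic ones. MRPL14 (295 and 324 FPKM), MRPL41 (207 and 188) and MRPL33 (175 and 178) had the most RFs of that class, and MRPL36 (85.0 and 60.7) and MRPS24 (131 and 100) the lowest ratios, while MRPL15 (34.4 and 39.8) was among the highest. The 84 subunits of oxidative phosphorylation had a median of −0.09, and 1 of them was lower (1.19%, beside 2.19% of all genes), the complex III subunit UQCRB (34.5 and 21.2). ATP5E (1064 and 971), COX7C (990 and 839) and COX8A (786 and 761) were close to equal, and UQCRHL (80.5 and 53.9), ATP5S (5.72 and 7.19) and NDUFC1 (98.6 and 131) were within 1.5 times. The medians between the DMSO cultures were −0.22, −0.14 and 0.00 for these classes, so the shifts of import and mitochondrial ribosomal proteins were no larger than those between cultures.

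Ribosome biogenesis factors, which assemble ribosomes in the nucleolus, had a median of −0.10 over 73 members, with 63 below the median of all genes. Only 1 was lower (1.37%, beside 2.19% of all genes). That member was RRS1, an assembly factor of the large subunit, at 18.8 FPKM with DMSO and 7.73 with INK128. NCL (211 and 208), FBL (229 and 177), NOP10 (162 and 151), GNL3 (68.9 and 74.9) and SBDS (84.2 and 92.5) were within 1.5 times, and so was NIP7 (15.1 and 10.8). The DMSO cultures differed by a median of −0.20 for this class. Aminoacyl-tRNA synthetases, the enzymes that charge tRNA, had a median of −0.06 over 38 members (−0.11 between the DMSO cultures). Of these, 2 were lower (5.26%, beside 2.19% of all genes), QARS (59.9 and 37.6) and the mitochondrial MARS2 (3.85 and 1.58). TARS (174 and 159), GARS (99.1 and 92.1) and SARS (92.5 and 88.3) were close to equal, and within 1.5 times were the mitochondrial enzymes HARS2 (8.14 and 6.98), RARS2 (8.21 and 8.82) and IARS2 (22.3 and 27.5).

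In intermediary metabolism single genes differed more than their classes. Polyamine synthesis had 2 lower members of 14 (14.3%, beside 2.19% of all genes). ODC1, ornithine decarboxylase, was at 46.0 and 26.6 FPKM, and AMD1, S-adenosylmethionine decarboxylase, at 24.6 and 13.4. OAZ1, the antizyme, was at 164 and 147, SMS at 156 and 128, and SRM at 63.8 and 65.8. OAZ2 (11.4 and 11.99) and MAT2B (27.0 and 36.9) had the highest ratios. The class median was −0.12, and that between the DMSO cultures was −0.46. FASN, the fatty acid synthase, was the 1 lower member of 32 genes of lipid synthesis (92.9 and 53.3 FPKM), whose median was −0.05. That share of 3.1% is near the 2.19% of all genes. FDPS (159 and 149) and SCD (127 and 117) were close to equal, and SQLE (9.28 and 11.01) and INSIG2 (8.23 and 10.3) were within 1.5 times. GAPDH was the 1 lower member of 27 glycolytic and pentose phosphate genes (3.70%, beside 2.19% of all genes). It was at 4034 and 2286 FPKM, but its RFs differed by 2.78 on the log2 scale between the DMSO cultures. ENO1 (1977 and 1785), LDHA (1289 and 1130) and PGK1 (751 and 814) were close to equal, and the transketolase gene TKT (375 and 268) and the glucose transporter gene SLC2A1 (179.8 and 215) were within 1.5 times. In nucleotide synthesis NME2, a nucleoside diphosphate kinase, was the 1 lower member of 27 (914 and 393), which is 3.70% beside 2.19% of all genes. NME1 was at 197 and 193 FPKM and IMPDH2, the enzyme of GTP synthesis, at 196 and 142. TYMS (125 and 139.6) and IMPDH1 (15.7 and 17.7) had the highest ratios. Between the DMSO cultures the medians were 0.70 for lipid synthesis, 0.01 for the glycolytic and pentose phosphate genes and −0.05 for nucleotide synthesis, so the cultures differed more than the treatments for lipid synthesis.

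Cytosolic chaperones had a median of −0.09 over 37 members, with 2 lower (5.41%, beside 2.19% of all genes) and 1 higher (2.70%, beside 1.69%). The lower ones were HSPA8 (1055 and 701), the constitutive HSP70, and PFDN5 (283 and 169.5), a prefoldin subunit, and the higher one was DNAJB4 (4.78 and 7.87), while HSP90AA1 (527 and 529.7) and HSPA14 (26.2 and 27.9) were close to equal. Of 30 hnRNP proteins 2 were lower (6.67%, beside 2.19% of all genes) and none higher. These were HNRNPA1 (69.2 and 41.0) and its near-identical copy HNRNPA1L2 (117 and 65.4), so they may not be separate observations. The most footprinted ones, HNRNPK (268 and 295), HNRNPA2B1 (259.9 and 275) and PCBP1 (199.1 and 198.7), were close to equal, as were HNRNPL (181 and 207) and HNRNPLL (12.1 and 14.3). Of 181 solute carriers 3 were lower and 2 higher, shares of 1.66% and 1.10% that are near or below those of all genes without ribosomal proteins (1.42% and 1.71%), and their median was 0.03. Among them, SLC25A6 and SLC25A5 (364 and 237), both ADP/ATP carriers, and SLC25A25 (5.82 and 3.59) were lower, the phosphate carrier SLC25A3 (389.9 and 262) was just within 1.5 times, the lactate transporter SLC16A3 (334 and 325) was close to equal and SLC25A35 (6.35 and 13.00) was higher, with SLC38A2 (35.0 and 57.3). Of 25 epithelial-mesenchymal and invasion genes 1 was lower, YBX1, and 1 was higher, the urokinase gene PLAU (159 and 251). That is 4% in each direction, beside 2.19% lower and 1.69% higher of all genes, and rests on 1 gene each. S100A6 (8969 and 9168), LGALS1 (3317 and 2752), S100A4 (1837 and 1836) and MMP14 (99.5 and 125) were within 1.5 times. Between the DMSO cultures the median changes were −0.07 for chaperones, −0.08 for hnRNP proteins, 0.72 for solute carriers and 0.27 for the epithelial-mesenchymal and invasion genes.

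The classes of genes with higher RFs were smaller in size of change than those with lower RFs. The highest class median was that of 23 genes for PI3K, the insulin receptor and FOXO-linked functions, at 0.25. This rank was lost at a minimum of 5 FPKM, where the class was at 0.18 and cytokines at 0.19, and with the change in TE centred on its median, where it was at 0.11 and DNA replication at 0.17. TE is the ratio of RF to RNA level. Of these 23 genes, 4 were higher (17.4%, beside 1.69% of all genes), none was lower, and 3 lay below the median of all genes. The list was written with earlier results of these data known, so this share is a description only. KLF6 is also counted among the immediate early genes below. KLF6, a zinc finger transcription factor, was at 23.5 FPKM with DMSO and 50.1 with INK128. IRS2, an insulin receptor substrate, was at 8.81 and 15.5, BCL6, a transcriptional repressor, at 8.37 and 13.2, and CCNG2, a cyclin known as a FOXO target, at 2.20 and 6.29. CDKN1B, the inhibitor p27, was at 6.15 and 9.09 FPKM and IRS1 at 6.59 and 9.02, both within 1.5 times. EGFR (49.5 and 55.7) and AKT1 (19.3 and 20.2) were close to equal. RNA of this class was also higher, by a median of 0.27 relative to all genes, and its part in the RF difference was not tested. The DMSO cultures differed by a median of 0.05.

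Of genes in none of the lists above, 3 are given that were picked after their values were seen, so they say nothing of a pathway. FBXO32, a muscle ubiquitin ligase, was at 3.98 and 10.9 FPKM, SGK1, a kinase related to AKT, at 17.3 and 30.5, and CITED2, a coregulator of CBP and p300, at 58.0 and 130. In the BCL2 family, 2 pro-apoptotic members of 14 were higher (14.3%, beside 1.69% of all genes) and none was lower. BBC3, which encodes PUMA, was at 3.64 and 8.70 FPKM, and BCL2L11, which encodes BIM, at 16.2 and 27.9. Their log2 RNA changes relative to all genes were 0.78 and 0.20. BAX (74.8 and 88.7), BCL2L1 (67.6 and 66.5), MCL1 (65.7 and 62.6) and BAK1 (19.3 and 15.1) were within 1.5 times. The median of the family was 0.04, and −0.09 between the DMSO cultures.

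Immediate early genes, which respond to growth factors within minutes, had members past 1.5 times in both directions. Their median was 0.03 over 35 members, with 3 lower (8.57%, beside 2.19% of all genes) and 5 higher (14.3%, beside 1.69%). ID1, an inhibitor of bHLH factors, was at 294 FPKM with DMSO and 138 with INK128, IER2 at 42.9 and 25.4, and FOS, a subunit of AP-1, at 3.00 and 1.52. KLF6, BTG1 (11.2 and 19.9), CTGF (508 and 786) and the MAP kinase phosphatases DUSP6 (62.2 and 103) and DUSP1 (21.7 and 35.6) were higher. CYR61 (1241 and 1775) was just within 1.5 times, and IER3 was at 473 and 378 FPKM. RNA of the class was higher by a median of 0.49 relative to all genes, and by 0.97 for KLF6, 0.89 for BTG1 and 0.25 for CTGF. The same genes differed by a median of −0.72 between the DMSO cultures, which is larger than the median with INK128. Of the DUSP family of dual-specificity phosphatases, 3 of 14 were higher and DUSP7 (6.47 and 4.27) was lower, beside 1.69% higher and 2.19% lower of all genes, with a median of 0.16. DUSP10, a phosphatase of p38 and JNK, was at 11.97 and 24.9 FPKM.

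Of 23 genes of the G1 phase, MYC (87.8 and 154 FPKM), E2F1 (5.37 and 11.5) and MNT, an antagonist of MYC (3.85 and 6.45), were higher (13.0%, beside 1.69% of all genes), and none was lower. The log2 RNA change relative to all genes was 0.70 for MYC and −0.23 for E2F1. CCND1 (98.997 and 91.7), CCND3 (58.6 and 50.6), MAX (15.2 and 11.6) and CDKN1A (69.5 and 80.1) were within 1.5 times, and the class median was 0.04. None of the 44 genes of mitosis and none of the 44 of DNA replication was past 1.5 times, with medians of 0.08 and 0.02. Between the DMSO cultures the medians were −0.03 for G1, −0.13 for mitosis and −0.00 for replication.

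Cytokine and NF-kB genes had a median of 0.12 over 27 members, with 3 higher (11.1%, beside 1.69% of all genes) and 1 lower (3.70%, beside 2.19%). IL6 was at 44.4 FPKM with DMSO and 72.4 with INK128, IL8 at 36.2 and 55.1, and IL1A at 0.86 and 1.46. IL1A passed the minimum of 1 FPKM only through its level with INK128, so its place in this count depends on its higher value. The log2 RNA changes relative to all genes were 1.02 for IL6 and 0.75 for IL8. NFKBIZ, an NF-kB cofactor, was lower (8.44 and 4.76), and IRF1 was at 27.4 and 19.7. CSF1 (122.6 and 160.0) and NFKBIA (89.6 and 75.8) were within 1.5 times. The DMSO cultures differed by a median of −0.57 for this class. Metallothioneins, small proteins that bind zinc and copper, were chosen after their values were seen. All 6 members had log2 RF changes above the median of all genes, from 0.30 to 0.86, with 3 higher, beside 1.69% of all genes, which for a set picked on its values is a description only. Relative RNA changes of MT1X and MT2A were 0.30 and 0.40, and that of MT1G was 0.01. MT2A was at 1776 and 2773 FPKM, MT1X at 287 and 440, and MT1G at 159 and 288, and these genes are similar in sequence, so reads may be shared among them.

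Lysosome and autophagy genes, which mTOR complex 1 is known to repress, had a median of 0.14 over 48 members with 13 below the median of all genes. Of the 48, 1 was higher (2.08%, near the 1.69% of all genes), the autophagy kinase ULK2 (1.00 and 1.73 FPKM). SQSTM1, the autophagy receptor p62, was at 167 and 237 FPKM, LAMP1 at 69.2 and 90.3, and CTSD, a lysosomal protease, at 863 and 873. NPC2 (253 and 238), GABARAP (221 and 194) and MCOLN1 (9.03 and 8.11) were within 1.5 times. The DMSO cultures also differed by a median of 0.14 for these genes. Integrins, collagens and laminins had a median of 0.16 over 39 members with none past 1.5 times. THBS1 was at 545 and 796, ITGB1 at 291 and 352, ITGA3 at 165 and 193, and COL18A1, the lowest ratio, at 37.3 and 24.9. LAMA5 (14.3 and 11.5) and COL12A1 (6.01 and 8.34) were also within 1.5 times. Their median between the DMSO cultures was 0.63.

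The 10 highest ratios at a mean RF level of 10 FPKM or more were those of HDGFRP3, TSPAN7, NKX2-3, GPRIN1, CITED2, TGIF1, KLF6, B4GALT2, DUSP10 and GEM. HDGFRP3 was at 15.0 FPKM with DMSO and 111 with INK128, a ratio of 7.41, the highest of the 10. Its relative RNA change was −0.03. TGIF1, a repressor of TGF-beta and retinoid signalling, was at 16.1 and 34.8 FPKM. GEM, a small GTPase, was at 7.39 and 15.3, and B4GALT2, a galactosyltransferase, at 32.7 and 69.8. NKX2-3 (27.6 and 69.2), GPRIN1 (13.9 and 31.8) and the tetraspanin TSPAN7 (14.6 and 37.98) had RNA changes of −0.22, −0.57 and −0.26 relative to all genes. Thus 4 of these 10 genes had higher RFs beside RNA at or under the median, and CITED2, KLF6, DUSP10 and GEM had RNA at least 1.5 times above it.

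The genes of the mTOR pathway itself had a median of −0.01 over 24 members (−0.12 between the DMSO cultures), with 3 lower (12.5%, beside 2.19% of all genes) and 2 higher (8.33%, beside 1.69%). MTOR was at 4.74 FPKM with DMSO and 4.06 with INK128, RPS6KB1, the S6 kinase, at 3.82 and 3.95, and LARP1, which binds TOP mRNAs, at 13.00 and 15.96. EIF4E was at 19.1 and 20.1 FPKM and EIF4EBP1 at 51.6 and 42.4. EIF4EBP2 was lower, at 2.41 and 1.03 FPKM. DDIT4, which encodes the mTOR complex 1 inhibitor REDD1, had the lowest ratio of the class (22.4 and 7.92), and SESN2, another inhibitor of the complex, was at 3.05 and 1.82. RRAGC, a GTPase of amino acid sensing, was higher (14.9 and 23.3), and so was RPS6KB2 (5.44 and 8.24). RHEB (117 and 125) and RRAGA (63.6 and 66.5) were close to equal, and MKNK2 (19.1 and 13.9), a kinase of eIF4E, was within 1.5 times.

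Genes of the ATF4 programme, which supplies amino acids, were mostly within 1.5 times. Of 31 members, SLC38A2, an amino acid transporter (35.0 and 57.3 FPKM), and MTHFD1L, of mitochondrial folate metabolism (83.1 and 160), were higher, and CHAC1 (3.10 and 1.55) and SESN2 were lower, 6.45% in each direction beside 1.69% higher and 2.19% lower of all genes. The median RNA change of the class was 0.35 relative to all genes, with 0.71 for SLC38A2 and −0.32 for MTHFD1L. ATF4 itself was at 50.5 and 34.5 FPKM, DDIT3 at 16.8 and 13.4, and the class median was −0.00, and −0.09 between the DMSO cultures. SLC3A2 (133 and 132), a subunit of amino acid transporters, and GADD45A (104 and 83.7) were, with MTHFD1L, the members with the most RFs. The 268 zinc finger ZNF genes had a median of −0.08 (−0.09 between the DMSO cultures), with 16 lower (5.97%) and 8 higher (2.99%), and their median mean RF level was 2.08 FPKM. Of all genes from 1 to 5 FPKM 1.54% were lower and 2.18% higher. ZNF207 (74.6 and 76.9) had the most RFs, ZNF593 (46.9 and 36.4) and ZNF259 (40.6 and 36.5) came next, and the ratios at 5 FPKM or more ran from ZNF525 (10.6 and 4.76) and ZNF581 (7.08 and 4.38) to ZNF219 (6.60 and 11.3) and ZNF217 (14.5 and 26.4).

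Most classes gave no member or few past 1.5 times. Of 47 classes with members, 42 had medians within 0.2 of 0 on the log2 scale, and 13 had no member past 1.5 times in either direction. The exceptions among medians were ribosomal proteins, elongation factors, other TOP mRNAs and eIF3 below and the PI3K and FOXO-linked genes above. Proteasome subunits, the core of protein breakdown, spanned −0.23 to 0.15 over 48 members, with PSMB1 at 670 FPKM with DMSO and 667 with INK128. Spliceosome and SR proteins (58 members, median −0.10), actin and its binding proteins (43, −0.03), tubulins (27, −0.04) and ER folding genes (40, 0.05) had no member past 1.5 times either. Between the DMSO cultures the medians were −0.09 for the proteasome, −0.11 for the spliceosome, 0.10 for actin, −0.09 for tubulins and 0.97 for ER folding. In 17 of the 47 classes the median was farther from 0 with INK128 than between the DMSO cultures. The plot of classes shows the members of each class and both medians.

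**Figure D3:**
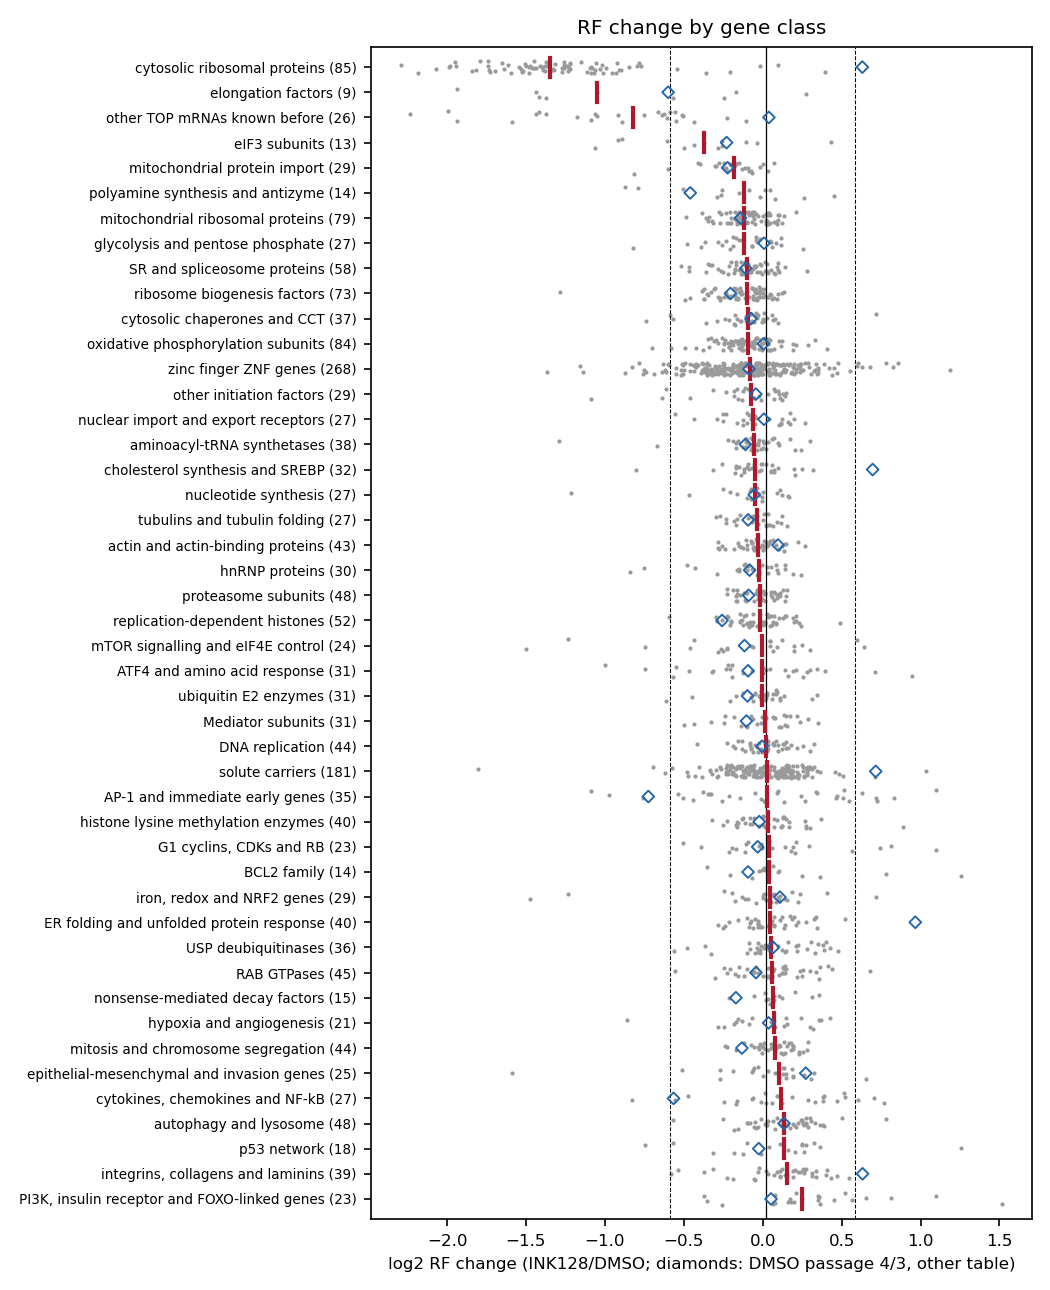
Log2 RF change (INK128/DMSO, 1 library each) of each member (grey points) of 46 gene classes, with the class median as a red bar; the class of 6 control genes is not drawn, and brackets give the number of members. The solid line is the median of all genes, and dashed lines mark 1.5 times. Open diamonds give the median log2 change between the DMSO cultures of passages 4 and 3, over the class members with a value in the other table. The 3 lowest classes have medians of −1.35, −1.05 and −0.82, while most red bars lie near 0.

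The genes with the most RFs in these classes were within 1.5 times between the libraries. This held for the actins and thymosins ACTB (5210 and 5018) and TMSB4X (3256 and 2758), the tubulins TUBA1B (1170 and 1116) and TUBA1A (636 and 645), and the ER chaperones CALR (951 and 997) and HSP90B1 (379 and 474). It held also for the proteasome subunits PSMB4 (411 and 400.3) and PSMB3 (364 and 382), the splicing proteins SNRPB (492 and 527) and SNRPG (267 and 249), the nuclear transport proteins RAN (472 and 452) and RANBP1 (193 and 207), and the replication genes TK1 (137 and 129) and MCM7 (128 and 130.0). In mitosis UBE2C (398 and 416) and PTTG1 (304 and 319.8) had the most RFs. Among the lowest ratios of their classes were those of SNRPD2 (385 and 269), SRSF7 (62.6 and 45.2), IPO7 (62.6 and 42.5), CDT1 (19.1 and 14.3) and CDC25B (25.1 and 21.3), and none of them reached 1.5 times.

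Outside ribosomal proteins, symbols that share a stem were grouped as well, giving 116 families with at least 10 members, for which no value between the DMSO cultures was computed. The lowest median of these was that of the keratins (KRT, −0.20 over 11 members, none past 1.5 times). It was followed by TIMM import proteins (−0.16 over 12), while the family with symbols that begin with EIF (50 members) had 8 lower ones, beside 1.42% of all genes outside ribosomal proteins, 1 of them the eIF4E inhibitor gene EIF4EBP2. The highest medians were those of the nuclear receptors (NR, 0.24 over 12) and of the GALNT glycosyltransferases (0.22 over 11 with none past 1.5 times). Of the nuclear receptors, NR1D1 (3.13 and 5.19 FPKM), NR1D2 (7.64 and 11.5) and NR4A2 (0.92 and 1.97) were higher, beside 1.71% of all genes outside ribosomal proteins. NR4A2 passed the minimum of 1 FPKM only through its level with INK128, so its place in this count depends on its higher value.

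RNA gave a view of how far RFs followed the mRNA. RNA levels of the genes used had a median log2 change of −1.18, so each RNA change is given relative to that median. Their summed RNA level was 28251 FPKM with DMSO and 15247 with INK128, while that of all entries was 6.07e+06 and 6.63e+06. The shift is thus one of the coding part against other entries, and a loss of mRNA from the cells was not tested. Among the 141 lower genes outside ribosomal proteins, RNA was lower by 1.5 times in 37 (26.2%, beside 4.95% of all genes) and higher in 7. Their median relative RNA change was −0.23. With RNA at 0.3 FPKM or more in both libraries, which leaves out genes whose RNA went below that level, 3 of 77 (3.90%) had lower RNA, beside 0.877% of all genes under the same filter. Among the 170 higher genes RNA was higher in 65 (38.2%, beside 5.97% of all genes) and lower in 7, with a median of 0.39. RNA and RF changes correlated across genes with a Pearson r of 0.20 and a Spearman rho of 0.23 over 10041 genes, which share libraries and are not independent replicates. Ribosomal proteins, elongation factors and other TOP mRNAs had RNA medians of −0.10, −0.17 and −0.14. ID1 (−0.73), AMD1 (−0.71) and the peptide hormone gene ADM (−0.96) had lower RNA beside lower RFs, whereas FTL (0.20), FTH1 (0.21), TPT1 (0.08) and FASN (0.06) did not. The replication-dependent histones went the other way, with a median relative RNA change of 1.08 and a median RF change of −0.02 over 52 members. Between the DMSO cultures their median RF change was −0.26, for only the part matched there (23 by their Silvestrol values). HIST1H3C RNA was at 188 FPKM with DMSO and 191 with INK128, while its RFs were at 3509 and 4058. RFs of HIST1H3B (3648 and 3859) and HIST1H4K (3341 and 3442) were close to equal, those of HIST1H2BG (14.5 and 9.62) and HIST1H2BD (1639 and 1336) were the lowest ratios and those of HIST1H2BF (118 and 139) and HIST1H4I (374 and 526) the highest, and histone genes are alike enough in sequence for reads to be shared among them.

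**Figure D4:**
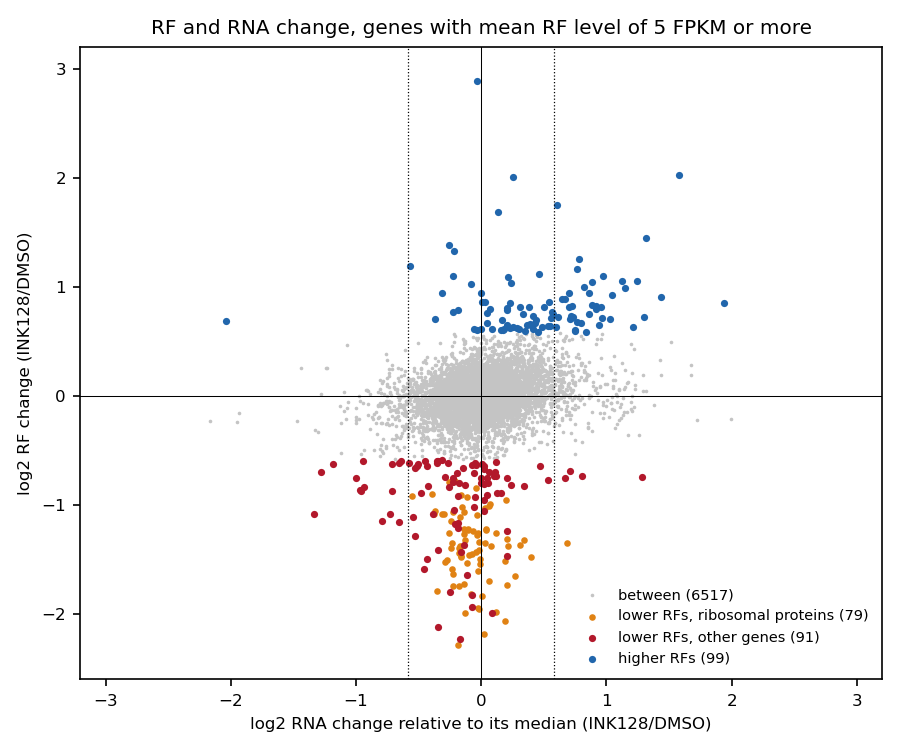
Log2 RNA change relative to its median (x axis) against log2 RF change (y axis), INK128/DMSO, for genes with a mean RF level of 5 FPKM or more, 1 library for each assay and treatment; dotted lines mark 1.5 times in RNA. The 79 ribosomal proteins and many of the 91 other genes with lower RFs lie near an RNA change of 0, while the 99 genes with higher RFs extend to the right.

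Features of the mRNA that the choice of genes did not use were then compared. Of the 10041 genes, 8379 had an entry in the RefSeq table of starts. A C at the annotated start followed by 4 bases that are C or T, read on the strand of the gene, was found in 5.69% of these and in 4.04% of all 27305 entries of the table. It was found in 44 of 68 ribosomal proteins, in 27 of 111 lower genes outside ribosomal proteins (24.3%) and in 4 of 141 higher genes (2.84%). In the 84 lower genes whose RNA was not lower the share was 28.6%, and in the 27 whose RNA was lower it was 11.1%. If such a run may begin within 5 bases of the annotated start, the shares were 43.2% for the lower genes, 19.1% for the higher and 22.9% for all. Outside ribosomal proteins, the 433 genes with the run had a median log2 RF change of −0.07, against 0.02 for the 7878 without, and 27 of them (6.24%) were lower, against 1.07%. Most mRNAs with such an annotated start therefore had RFs within 1.5 times. Those in the sequences above with the longest runs, TOMM7 with 12 bases and EIF3F with 10, were 0.81 and 0.92 lower on the log2 scale, less than TPT1 with 7. CRTAP with 33 bases and TAF1D with 11, which are not shown, had log2 RF changes of −1.17 and −1.11. The sequences shown were picked, so their split is not the share of runs among lower genes. Annotated starts are not measured in these cells, and EEF1G and YBX1 have no such run at theirs.

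The length of the 5′ UTR, from the MANE Select transcript of GENCODE, differed in the other direction. It had a median of 130 bases over all genes, 42 for ribosomal proteins, 118.5 for the other lower genes and 257 for the higher genes. The share of higher genes outside ribosomal proteins was 0.33% with a 5′ UTR under 50 bases and 4.71% at 400 bases or more. The median RF change went from −0.03 to 0.12 over the same ranges. The length was 286 bases for higher genes whose RNA was higher and 246 for those whose RNA was not. The coding length had a median of 1311 bases in higher genes, 1144.5 in lower genes outside ribosomal proteins and 1374 over all.

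**Figure D5:**
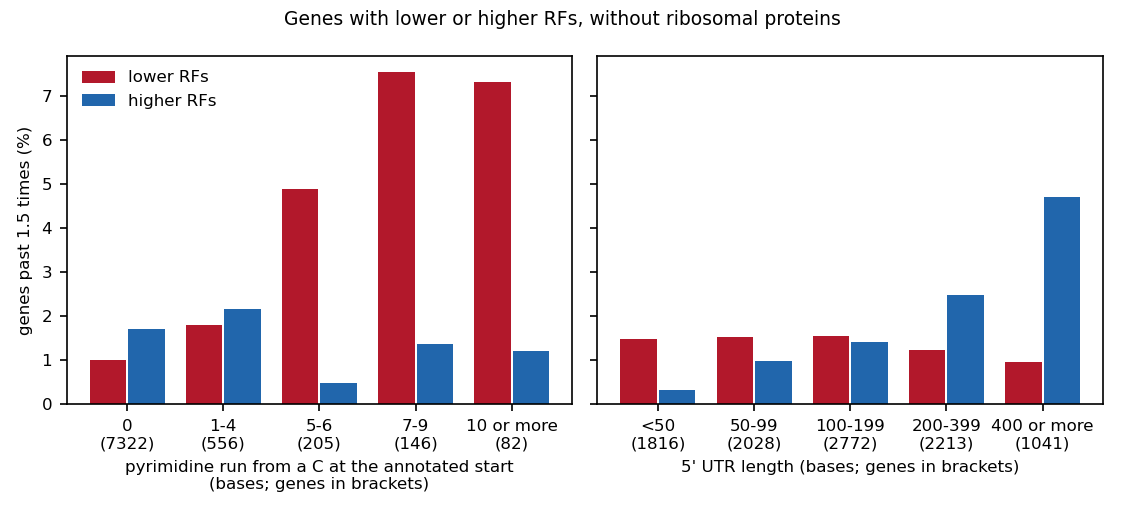
Share of genes outside ribosomal proteins with lower (red) and higher (blue) RFs by 1.5 times, by the length of the pyrimidine run from a C at the annotated start (left) and by 5′ UTR length (right), with the number of genes in brackets. Lower RFs were most frequent, at 7.53%, with runs of 7 to 9 bases, and higher RFs, at 4.71%, with 5′ UTRs of 400 bases or more.

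Silvestrol, an inhibitor of the helicase eIF4A, gave another pattern in the RFs of the same genes after 2 h at 25 nM, in its own table with its own DMSO libraries. RFs of 27.5% of 8683 genes were lower and 7.46% higher in passage 3, and 27.4% and 8.45% in passage 4. The other TOP mRNAs had medians of 0.24 and −0.08 in these passages, where INK128 gave −0.82, and the PI3K and FOXO-linked genes had medians of −1.001 and −0.90, where INK128 gave 0.25. The values stand side by side without a test, since units, tables and controls differ.

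A few ratios rest on entries with near-identical copies or with unusual values, and the study's rule of leaving out ambiguous positions is described for RPKM, with nothing said of FPKM. PTCD1 had the lowest ratio of all, from 2.33 FPKM to 5.53e-05, a value that 1 estimate near 0 sets. HNRNPA1L2 (117 and 65.4 FPKM) and NACA2 (123.02 and 69.2) are near-identical copies of HNRNPA1 and NACA, and C3orf62 had RFs of 171 and 276 FPKM at RNA levels of 0.54 and 0.06.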

How the data were processed

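The deposited INK128 table gives an FPKM value for each gene in each library, with no counts. The authors prepared RFs after cycloheximide by RNase I digestion and a sucrose cushion. Their processing notes name CASAVA 1.8.1, Bowtie2 and hg19. Which software computed FPKM is not given in the sources used here. Repeated lines (13163 lines, 13160 distinct) were dropped, protein coding status came from RefSeq by gene identifier, and the entry with the highest mean RF FPKM was kept for each symbol. Ratios carry no pseudocount. FPKM is scaled to each library, so an equal loss from all entries is not visible, but a change in the part held by coding genes is. The authors' columns of TE (RF over RNA), its change and a z-score were not used. From the Silvestrol table, the deposited RPKM values and read counts of the RF libraries at 2 h were used, and 10 columns of other libraries were not. The code for ratios and calls was run on simulated data with known changes, which checks the arithmetic and not the calls in these data. The members and lists were chosen with earlier results of these data known. By rule, the genes named for a class are the 3 with the most RFs and the 2 lowest and 2 highest ratios at 5 FPKM or more. Members past 1.5 times and a few known regulators were added after their values were seen, and classes with medians near 0 are given in short. A few genes that this rule names are not reported here. Python 3.11.15, pandas 2.3.3 and numpy 2.4.6 were used. Alternatives covered thresholds, filters, a pseudocount, scaling and TE.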

Additional observations from a re-analysis of the deposited data

How the results depend on the processing

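The count of lower genes was 220 of 10041 (2.19%) and stayed within 1.5 times under most alternatives (170 to 326), among them a minimum of 5 FPKM, no minimum, a pseudocount of 0.5, other scalings and summed entries. It was 104 at 2 times, and 17 of 4901 (0.347%) with the change in TE, where the median TE change of all genes is 1.17. With TE centred on its median, which was added after seeing the data, 312 of 4901 (6.37%) were lower. The count of higher genes was 170 (1.69%), and it was 35 (0.349%) at 2 times, 99 of 6786 (1.46%) with a minimum of 5 FPKM, 358 of 11735 (3.05%) with no minimum, 4588 of 4901 (93.6%) with TE and 85 of 4901 (1.73%) with centred TE. The classes with a median at or below −0.58 numbered 3, and 0 with TE, where the medians of elongation factors (0.032) and other TOP mRNAs (0.45) turned positive. With centred TE they numbered 4, as histones joined at −1.08. Class medians moved by less than 0.38, the SD of class medians between the DMSO cultures, in 282 of the recomputed values, and moved more in 45; in 2 more, the ones just given, a median past 1.5 times turned sign. Counting medians of any size, the sign turned in 3 classes with a minimum of 5 FPKM, 1 with median centring, 8 with rescaling to the sum without ribosomal proteins, 26 with TE and 11 with centred TE. The share of starts with a pyrimidine run among lower genes was 39.9%, and 24.3% without ribosomal proteins. It was 58.8% at 2 times and 56.6% within 5 bases of the start. No paired analysis was possible because each treatment has 1 RF library. Counting error could not be given, as the depth is unknown.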
